A study of Mus musculus with 4 samples.

Results

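The suppressors of cytokine signalling, the SOCS family, are 8 genes in the mouse (Socs1, Socs2, Socs3, Socs4, Socs5, Socs6, Socs7 and Cish), and their transcripts were followed here in induced regulatory T cells (induced Treg cells). Members were taken by gene symbol from both deposited tables. All 8 were found among 22144 symbols shared by the tables, and all 8 passed the filter on low values that left 10603 genes in the test. There were 4 libraries, 2 labelled MSC KO and 2 labelled WT, where MSC stands for musculin, the product of Msc, a transcription factor of the helix-loop-helix class. All came from C57BL/6 mice. Sorted naive T cells of both labels were stimulated through CD3 and CD28 (antibodies at 1 µg/ml) until day 3, and both received TGF-beta at 2 ng/ml. The labels do not say how Msc was disrupted, whether in all cells of the mouse, or if the 2 replicates had separate animals or cultures as their source.

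SOCS proteins close a feedback loop. A cytokine brings its receptor chains together, the attached JAK kinases phosphorylate STAT factors, and the STAT factors switch on genes that include those of the SOCS family. Each SOCS protein has an SH2 domain, which docks on phosphotyrosine of a receptor or a kinase, and a SOCS box, which recruits elongins and a cullin ubiquitin ligase. SOCS1 and SOCS3 can also block the kinase itself. In T cells SOCS1 is known to restrain interferon-gamma and common gamma chain cytokines, SOCS3 to dock on the interleukin-6 receptor chain gp130 and restrain STAT3, and CIS, the product of Cish, to be induced by interleukin-2 through STAT5.

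The start regions of 3 members are shown because STAT factors bind the letters TTCNNNGAA, and these members are the largest difference (Socs3) and the most abundant pair (Cish and Socs1). Each sequence runs 5′ to 3′ from 250 bases before the annotated start to 25 bases after it (RefSeq, build GRCm38.p6), and capitals mark TTCNNNGAA.
Socs3 (chr11:117969342-117969616, minus strand): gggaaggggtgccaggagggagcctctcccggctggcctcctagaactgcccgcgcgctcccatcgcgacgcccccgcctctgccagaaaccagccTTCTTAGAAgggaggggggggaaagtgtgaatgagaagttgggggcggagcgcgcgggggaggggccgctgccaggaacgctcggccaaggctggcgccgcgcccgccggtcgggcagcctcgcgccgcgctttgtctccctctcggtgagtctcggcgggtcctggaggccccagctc
Cish (chr9:107296409-107296683, plus strand): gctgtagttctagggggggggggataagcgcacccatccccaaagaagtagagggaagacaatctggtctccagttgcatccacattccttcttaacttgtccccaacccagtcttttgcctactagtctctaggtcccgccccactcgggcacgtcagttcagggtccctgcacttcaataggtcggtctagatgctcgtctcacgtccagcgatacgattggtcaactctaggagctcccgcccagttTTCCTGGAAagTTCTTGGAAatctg
Socs1 (chr16:10785512-10785786, minus strand): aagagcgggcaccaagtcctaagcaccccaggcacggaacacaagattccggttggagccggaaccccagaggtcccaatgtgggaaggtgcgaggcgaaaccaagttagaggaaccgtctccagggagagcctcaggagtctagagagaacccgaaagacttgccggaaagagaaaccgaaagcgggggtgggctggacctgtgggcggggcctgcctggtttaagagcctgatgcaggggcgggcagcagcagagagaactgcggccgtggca
Socs3 held 1 match, TTCTTAGAA, at positions -154 to -146 relative to the start. Cish held 2, TTCCTGGAA from base 1 to 9 after the start and TTCTTGGAA from base 12 to 20, on either side of 2 spacer bases. Socs1 held none in this window. Windows were found for 4 of the 8 members, the fourth being Socs4, which held none either. Over 32851 RefSeq windows from 250 bases before to 50 bases after a start, 8.30% held at least 1 match. The E-box CANNTG, the kind of site that helix-loop-helix factors bind, was searched on both strands as well, and was found once in the Cish window, as CAGTTG, and in none of the other 3, against 72.3% of all windows. A match describes letters and not binding, which these data do not measure.

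Msc itself read higher under the MSC KO label, at low values. The MSC KO-labelled pair read 0.331 and 0.939 FPKM for Msc, where the WT pair read 0.0243 and 0.0178 FPKM. All 4 values lay under 1 FPKM, so Msc fell below the filter and was not in the fit. The authors' deposited tables hold no test of Msc for MSC KO 1 against WT 1. For MSC KO 2 against WT 2 their q was 0.999. Every direction below is given for the libraries as labelled. FPKM is fragments scaled to transcript length and to library depth, a level that lets genes be compared with each other. Of each pair of values the first is replicate 1. The T cell markers Cd3e (141 and 133 FPKM in MSC KO-labelled cells, 149 and 155 FPKM in WT cells) and Cd4 (166 and 209 FPKM in MSC KO-labelled cells against 173 and 189 FPKM in WT cells) were high in all 4 libraries, and of 7 tested T cell identity genes 2 were higher and 2 lower in both tables, while Foxp3, which defines Treg cells, was at 2.97 and 7.05 FPKM in MSC KO-labelled cells against 62.8 and 66.0 FPKM in WT cells. Of 6 Treg markers 4 were lower and 1 higher in both tables, beside 37.5% and 31.2% of all tested genes. Of the 4, Itgae had an MSC KO mean under 1 FPKM and entered the test through the WT libraries, so the count is a description. Lrrc32, which presents latent TGF-beta on Treg cells, read 5.78 and 9.46 FPKM in MSC KO-labelled cells against 23.9 and 26.0 FPKM in WT cells. Library depth, judged by the value that 1 fragment takes in low genes, lay between 25500000 and 35000000 fragments. Of all 10603 genes 1 passed an adjusted p of 0.05 in limma (0.00943%), with 2162 at an unadjusted p under 0.05 (20.4%), and of the 8 members 0 and 2. That gene was the small RNA gene Rnu73b.

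Family members spanned a wide range of levels. Socs1 and Cish stood on top in every library, and Socs5 was the lowest in every library. In the MSC KO-labelled libraries Socs1 had 256 and 196 FPKM and Cish 156 and 185 FPKM, against 192 and 186 FPKM for Socs1 and 146 and 152 FPKM for Cish in WT. By mean level Socs1 ranked 475th and Cish 621st of the tested genes, and Socs5 9535th. Even for Socs5, with its longest annotated transcript, the values correspond to about 272 to 331 fragments per library, a counting error near 6.06% at the fewest.

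**Figure D1:**
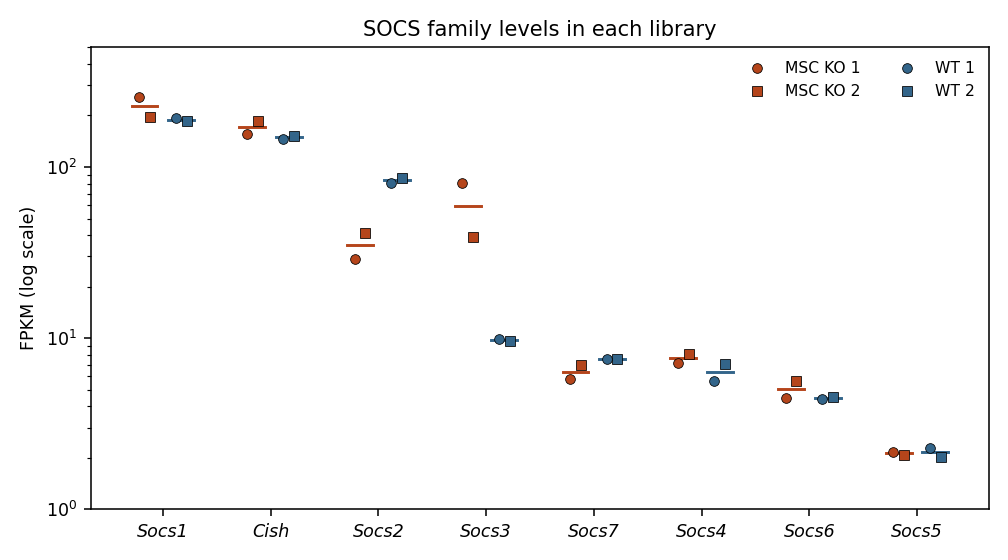
FPKM of the 8 SOCS family genes on a log axis, ordered by WT mean, with MSC KO-labelled libraries left of WT. Circles are replicate 1, squares replicate 2 and bars the mean of 2 libraries. Socs3 lies at 80.1 and 38.8 FPKM in MSC KO-labelled libraries against 9.83 and 9.62 FPKM in WT cells, and Socs2 lies lower in MSC KO-labelled cells.

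Socs3 differed most. It had 80.1 and 38.8 FPKM in MSC KO-labelled cells, against 9.83 and 9.62 FPKM in WT cells. Both MSC KO-labelled libraries were well above both WT libraries, which were nearly equal, and MSC KO 1 was 2.06 times MSC KO 2. The plain ratio was 8.15 in the first table, which pairs MSC KO 1 with WT 1, and 4.03 in the second. On the log2(FPKM + 1) scale the difference was 2.41 ± 0.29 (SE, 95% interval 1.55 to 3.27, n = 2 each), and it did not pass over all genes (adjusted p = 0.13, limma with the table as a block). In the authors' deposited table of each pair, a test of 1 library against 1, Socs3 was called both times (q = 0.0118 and 0.0143) at the smallest p of each table, 5e-05. That smallest p was shared by 53 symbols in the first pair and 44 in the second. The authors' deposited tables called 0.655% of tested genes in the first pair, 0.549% in the second and 0.239% in both. Among genes higher in both tables, Socs3 ranked 38th by the smaller of its 2 differences. Socs3 lies on chromosome 11 (mm9, 117827400 to 117830680). In a bulk library, more cells with a transcript and more of it per cell cannot be told apart.

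Socs2, known in mice as a restrainer of growth hormone signalling and of the type 2 helper T cell program, went the other way. It had 29.0 and 40.9 FPKM in MSC KO-labelled cells, against 81.0 and 86.5 FPKM in WT cells, and the libraries of the 2 labels did not overlap. As plain ratios these were 0.358 for replicate 1 and 0.473 for replicate 2. The difference was -1.26 ± 0.14 on the log2(FPKM + 1) scale (SE, 95% interval -1.67 to -0.84, n = 2 each), and over all genes its adjusted p was 0.121 by limma. Nor was Socs2 called in the authors' deposited tables (q = 0.0896 and 0.21). Among genes lower in both tables it ranked 75th by the smaller difference. The gene lies on chromosome 10 (mm9, 94874123 to 94879491).

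Fits to 3 libraries cannot carry the block and were run without it, so they differ from the fit above in both the block and the library. The 4-library fit with no block gave an adjusted p of 0.0671 for Socs3 and 0.0643 for Socs2 (limma). Without MSC KO 1 the difference of Socs3 was 1.89 and that of Socs2 was -1.02. Without MSC KO 2 they were 2.92 and -1.50. Without WT 1 they were 2.42 and -1.30, and without WT 2 they were 2.39 and -1.21. A fit without a library takes its lone partner to vary like the other label, so only differences are given for these fits. The WT libraries lay closer together than the MSC KO-labelled ones: the SD of Socs3 was 29.2 FPKM in MSC KO-labelled libraries and 0.148 FPKM in WT cells. With the table as a block, a p-value rests in part on how far the 2 within-table differences lie apart. With no block it rests in part on the spread within each label. Either spread may be technical.

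**Figure D2:**
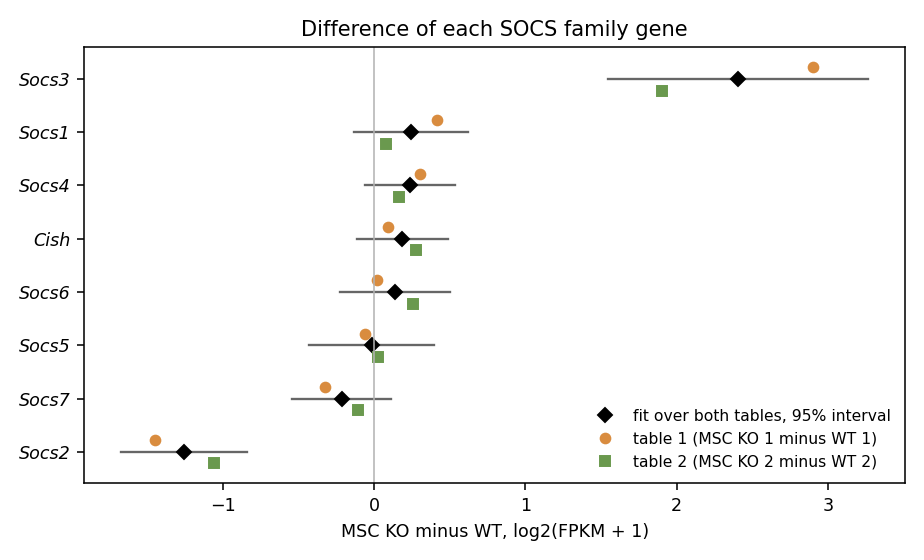
Difference of each SOCS family gene on the log2(FPKM + 1) scale, MSC KO-labelled minus WT. Circles are the first pair, squares the second pair, diamonds the fit over both tables and lines its 95% interval. The intervals of Socs3 (1.55 to 3.27) and Socs2 (-1.67 to -0.84) lie away from 0, and those of the other 6 genes include it.

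Socs1, the strongest JAK inhibitor of the family, had 256 and 196 FPKM in MSC KO-labelled cells against 192 and 186 FPKM in WT cells. MSC KO 1 alone stood clearly above the rest, by 33.3% over its partner, while MSC KO 2 was 5.38% above its own. The difference was 0.24 ± 0.13 (95% interval -0.13 to 0.62, adjusted p = 0.37, limma). With no block the adjusted p was 0.385 over 4 libraries. Without the block and MSC KO 2 the difference was 0.44, and without the block and MSC KO 1 it was 0.05. Socs1 lies on chromosome 16 (mm9, 10783901 to 10785629).

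Cish, like Socs2 a known STAT5 target, had 156 and 185 FPKM in MSC KO-labelled cells against 146 and 152 FPKM in WT cells, 6.67% and 21.4% above its partner. The larger excess was in MSC KO 2, the opposite of Socs1. Its difference was 0.19 ± 0.10 (95% interval -0.11 to 0.49, adjusted p = 0.386, limma), and with no block the adjusted p was 0.359. Without the block and MSC KO 1 the difference was 0.31, and without the block and MSC KO 2 it was 0.06. Cish lies on chromosome 9 (mm9, 107199019 to 107204292).

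The other 4 members, whose products are tied more to receptor tyrosine kinases and adaptor proteins than to JAK kinases, stayed between 2.03 and 8.05 FPKM in every library. On mm9 they lie on chromosomes 14 (Socs4, 47896561 to 47912124), 17 (Socs5, 87507018 to 87536925), 18 (Socs6, 89037271 to 89063599) and 11 (Socs7, 97223864 to 97259856). Socs4 had 7.18 and 8.05 FPKM in MSC KO-labelled cells against 5.62 and 7.06 FPKM in WT cells (0.24 ± 0.10, 95% interval -0.06 to 0.53, adjusted p = 0.308, limma). Socs7 had 5.81 and 6.92 FPKM in MSC KO-labelled cells against 7.53 and 7.53 FPKM in WT cells (-0.22 ± 0.11, 95% interval -0.54 to 0.11, adjusted p = 0.367, limma). In the WT libraries Socs7 stood above Socs4, and in the MSC KO-labelled ones below it. Socs6 had 4.46 and 5.64 FPKM in MSC KO-labelled cells against 4.40 and 4.55 FPKM in WT cells (0.14 ± 0.12, 95% interval -0.23 to 0.50, adjusted p = 0.562, limma), and MSC KO 2 alone stood apart. Socs5 had 2.16 and 2.09 FPKM in MSC KO-labelled cells against 2.29 and 2.03 FPKM in WT cells (-0.02 ± 0.14, 95% interval -0.43 to 0.40, adjusted p = 0.958, limma), with the libraries of the 2 labels interleaved.

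Counted over the family, both tables had the MSC KO-labelled library above WT for 5 members and below it for 2, and Socs5 changed sign between tables. Over all tested genes 31.2% were higher and 37.5% lower in both. The libraries of the 2 labels did not overlap in 6 of 8 members, a share near the 59.1% of all tested genes. Of these 4 were higher, where the share over all genes was 26.6%, and 2 lower, where it was 32.5%. A difference of at least 1 in log2(FPKM + 1), called 2-fold here, was seen in both tables for 1 member above WT (Socs3), where the share over all genes was 1.32%, and 1 below (Socs2), where it was 0.811%. The median difference of the 8 members was 0.16, beside -0.02 over all tested genes.

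**Figure D3:**
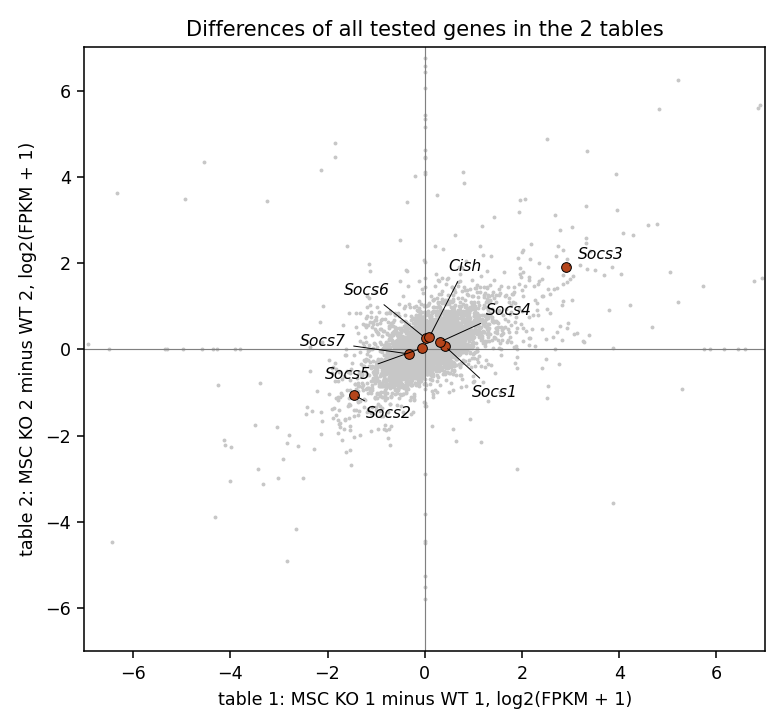
Difference in the first pair (MSC KO 1 minus WT 1, horizontal) against the second pair (MSC KO 2 minus WT 2, vertical) on the log2(FPKM + 1) scale. Grey points are the 10603 tested genes, of which 22 lie beyond the axes, and red points the 8 SOCS family genes. Socs3 (2.91 and 1.91) lies at the upper right edge of the cloud, Socs2 (-1.45 and -1.06) at the lower left, and the other 6 near the centre.

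The make-up of the family's transcript pool differed at Socs2 and Socs3. A share of the summed FPKM within a library does not depend on how that library was scaled. Socs3 made up 14.8% and 8.03% of the 8-gene sum in MSC KO-labelled cells, against 2.19% and 2.11% in WT. For Socs2 the shares were 5.36% and 8.47% in MSC KO-labelled cells, against 18.04% and 18.99% in WT. Cish and Socs1 together held 76.2% and 78.8% of the sum in MSC KO-labelled cells and 75.4% and 74.3% in WT. The sum itself was 541 and 483 FPKM in MSC KO-labelled cells and 449 and 456 FPKM in WT cells.

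Within a library there were 2.76 and 0.948 Socs3 transcripts per Socs2 transcript in MSC KO-labelled cells, against 0.121 and 0.111 in WT. The mean log2 ratio was 3.80 higher in MSC KO-labelled cells, and higher in both than in either WT library. An exact two-sided permutation test over 2 against 2 libraries gave p = 0.333, the smallest it can give. The ratio of Cish to Socs2 was 5.38 and 4.52 in MSC KO-labelled cells against 1.80 and 1.76 in WT, whereas the ratio of Cish to Socs1 (0.608 and 0.943 in MSC KO-labelled cells against 0.760 and 0.818 in WT) overlapped between labels.

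**Figure D4:**
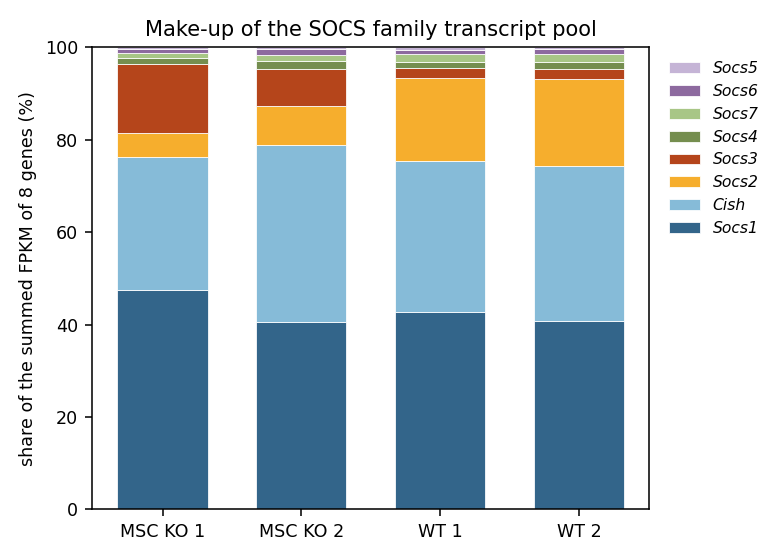
Share of each SOCS family gene in the summed FPKM of the 8 genes, in percent, one bar per library with the MSC KO-labelled libraries left of WT. Socs3 takes 14.8% and 8.03% in MSC KO-labelled cells against 2.19% and 2.11% in WT, and Socs2 takes 5.36% and 8.47% in MSC KO-labelled cells against 18.04% and 18.99% in WT.

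Upstream of the SOCS genes stand the cytokines. Of 20 listed ligands that signal through JAK kinases 14 were tested, with 12 higher and 2 lower in both tables, 9 at least 2-fold higher and a median difference of 2.10. Of the 14, Il5, Il10, Il21 and Il22 had a WT mean under 1 FPKM and entered the test through the MSC KO-labelled libraries, so the count is a description. Beside this list and those below, 31.2% of all tested genes were higher and 37.5% lower in both tables. The share at least 2-fold higher in both was 1.32%, and that with an unadjusted p under 0.05 by limma was 20.4%. Il2, the T cell growth factor that induces Cish and Socs2 through STAT5, was at 33.9 and 26.7 FPKM in MSC KO-labelled cells against 4.24 and 4.29 FPKM in WT cells (adjusted p = 0.0992, limma). Il10, which signals through STAT3 and is a known inducer of Socs3, was at 39.6 and 10.1 FPKM in MSC KO-labelled cells against 0.478 and 0.468 FPKM in WT cells (adjusted p = 0.139). Il21, another STAT3 cytokine, was at 20.996 and 1.32 FPKM in MSC KO-labelled cells against 0.186 and 0.138 FPKM in WT cells (adjusted p = 0.246), nearly all of it in MSC KO 1. Both these STAT3 cytokines, like Socs3, were higher in MSC KO 1 than in MSC KO 2, but this was not particular to them. Among the other tested ligands, Il2, Il4, Il5, Il9, Il13, Il22, Il24, Lif and Osm were higher in MSC KO 1 too. Ifng, Il3 and Csf2 were higher in MSC KO 2. Il3 read 22.9 and 74.2 FPKM in MSC KO-labelled cells against 5.11 and 5.79 FPKM in WT cells. Csf2 read 2.54 and 37.0 FPKM in MSC KO-labelled cells against 1.97 and 2.20 FPKM in WT cells. A link to Socs3 was not tested. Il4, which signals through STAT6, was at 23.9 and 8.47 FPKM in MSC KO-labelled cells against 1.71 and 1.46 FPKM in WT cells (adjusted p = 0.139). Il9 read 382 and 291 FPKM in MSC KO-labelled cells against 73.8 and 72.1 FPKM in WT cells (adjusted p = 0.0992). Il13, a type 2 cytokine, read 58.1 and 21.7 FPKM in MSC KO-labelled cells against 1.43 and 2.06 FPKM in WT cells (0.13). Il6 and Il27, further known inducers of Socs3, stayed under 1 FPKM in every library. Ifng, a known inducer of Socs1, was at 33.7 and 42.1 FPKM in MSC KO-labelled cells against 49.99 and 51.6 FPKM in WT cells (adjusted p = 0.209).

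Of 30 receptor chains 19 were tested, with 8 higher and 5 lower in both tables and a median difference of 0.11, and 2 were at least 2-fold higher in both tables and 0 lower. These were Il10ra, the ligand-binding chain for interleukin-10 (18.6 and 18.2 FPKM in MSC KO-labelled cells against 8.70 and 8.19 FPKM in WT cells, adjusted p = 0.114, limma), and Il12rb2 of the interleukin-12 receptor (59.9 and 50.1 FPKM in MSC KO-labelled cells against 12.7 and 15.9 FPKM in WT cells, adjusted p = 0.117). Il6st, which encodes the gp130 chain on which SOCS3 docks, was at 9.74 and 5.84 FPKM in MSC KO-labelled cells against 7.51 and 6.69 FPKM in WT cells (0.08 ± 0.17, adjusted p = 0.808), with overlapping libraries. No chain passed over all genes by limma, and 10 had an unadjusted p under 0.05, where the share over all tested genes was 20.4%.

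Among the kinases, Jak2 was at 63.3 and 34.1 FPKM in MSC KO-labelled cells against 25.4 and 26.5 FPKM in WT cells (0.82 ± 0.27, adjusted p = 0.243, limma), Jak1 at 37.2 and 36.2 FPKM in MSC KO-labelled cells against 44.4 and 46.4 FPKM in WT cells (-0.30 ± 0.09, 0.231) and Tyk2 at 12.2 and 13.4 FPKM in MSC KO-labelled cells against 11.3 and 11.2 FPKM in WT cells (0.17 ± 0.10, 0.392). Jak3 shares a row with Insl3 and was not in the fit, and that joint row was at 125 and 104 FPKM in MSC KO-labelled cells against 86.2 and 78.6 FPKM in WT cells. Of the STAT factors that act above Cish and Socs2, Stat5a was at 103 and 77.9 FPKM in MSC KO-labelled cells against 48.8 and 51.4 FPKM in WT cells (0.83 ± 0.16, adjusted p = 0.154) and Stat5b at 72.4 and 66.4 FPKM in MSC KO-labelled cells against 58.6 and 61.1 FPKM in WT cells (0.21 ± 0.10, 0.349). Stat4, which serves interleukin-12, was at 27.3 and 41.6 FPKM in MSC KO-labelled cells against 17.9 and 18.5 FPKM in WT cells (0.86 ± 0.17, adjusted p = 0.165). Stat2 was at 15.1 and 15.0 FPKM in MSC KO-labelled cells against 16.5 and 16.6 FPKM in WT cells (-0.12 ± 0.09, 0.482), and Stat6 at 54.7 and 59.8 FPKM in MSC KO-labelled cells against 54.6 and 58.0 FPKM in WT cells (0.02 ± 0.09, 0.904). For Stat3, which acts above Socs3, the authors' estimate failed in the first table, so it was not in the fit. In the second table Stat3 was at 177 FPKM in MSC KO 2 against 108 FPKM in WT 2 (q = 0.563 in the authors' deposited table).

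**Figure D5:**
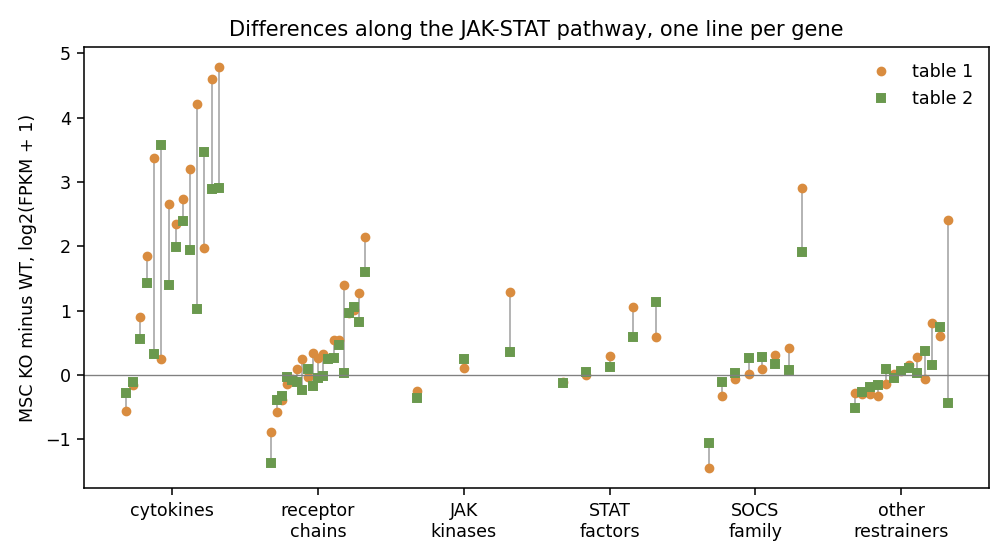
Differences of tested genes along the JAK-STAT pathway on the log2(FPKM + 1) scale, MSC KO-labelled minus WT, one vertical line per gene joining the first pair (circle) and the second pair (square), sorted within each group. Il10 reaches 4.78 in the first pair, and within the SOCS family Socs3 and Socs2 lie apart from 6 genes near 0.

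Other restrainers of the pathway showed no 2-fold difference in both tables (0 of 13, with 5 higher and 4 lower at any size, a median of 0.06, and 3 at an unadjusted p under 0.05 by limma). Cblb, a ubiquitin ligase that limits T cell activation, was at 26.6 and 30.3 FPKM in MSC KO-labelled cells against 17.1 and 17.7 FPKM in WT cells (adjusted p = 0.139, limma), and was chosen after its values were seen. Of the elongins, cullins and partners through which a SOCS box acts, 0 of 9 were 2-fold apart in both tables, 4 were higher and 1 lower, and the median was -0.00. Cul5, the cullin that SOCS boxes recruit, read 6.22 and 6.14 FPKM in MSC KO-labelled cells against 6.72 and 6.97 FPKM in WT cells. Among 15 tested genes for other proteins with a SOCS box, out of 27 listed, 10 were higher and 2 lower in both tables, with a median of 0.24. Of the 10, Asb2, Asb16 and Neurl2 had a WT mean under 1 FPKM and entered through the MSC KO-labelled libraries, and of the 2, Spsb2 entered through the WT libraries, so these counts describe only. Asb2 alone was 2-fold apart in both tables, at 24.7 and 13.0 FPKM in MSC KO-labelled cells against 0.667 and 0.490 FPKM in WT cells (adjusted p = 0.0992).

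Of 13 tested genes linked to STAT3, 12 were higher in both tables and 6 at least 2-fold higher, with a median of 1.45. Some, such as Il10 and Il17a, had a WT mean under 1 FPKM and entered through the MSC KO-labelled libraries. Il17f, a type 17 helper T cell cytokine, was at 198 and 334 FPKM in MSC KO-labelled cells against 4.40 and 3.39 FPKM in WT cells (adjusted p = 0.0992, limma), and Il17a read 3.71 and 10.4 FPKM in MSC KO-labelled cells against 0.226 and 0.250 FPKM in WT cells (0.139). Both were higher in MSC KO 2 than in MSC KO 1, unlike Socs3. Batf, an AP-1 factor, was at 188 and 81.0 FPKM in MSC KO-labelled cells against 25.2 and 27.5 FPKM in WT cells (adjusted p = 0.152, limma). Of 12 tested genes linked to STAT5, 4 were higher and 3 lower in both tables, with a median of 0.04. The granule protease gene Gzmb was at 372 and 180 FPKM in MSC KO-labelled cells against 63.7 and 67.7 FPKM in WT cells (adjusted p = 0.152, limma), and the adjusted p of Foxp3 was 0.114. The 8 STAT6-linked genes were all higher in both, with a median of 0.85, and 1 of them, Il1rl1, had a WT mean under 1 FPKM. None of these genes passed over all genes tested by limma, and 9, 7 and 5 had an unadjusted p under 0.05, in the order STAT3, STAT5 and STAT6. Over all tested genes that share was 20.4%, with 31.2% higher and 37.5% lower in both tables. The lists overlap, so their counts are not separate. Il10 and Il21 were counted both as ligands and as STAT3-linked genes, and Il4, Il13 and Il24 both as ligands and as STAT6-linked genes.

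By the pattern of within-table differences, the genes nearest to Socs3 among 5697 others with a mean of at least 10 FPKM were Il1rn, Satb1 and Batf, at Euclidean distances of 0.174, 0.202 and 0.272 on the log2 scale over the 4 libraries. Il1rn, the interleukin-1 receptor antagonist, was at 46.6 and 17.6 FPKM in MSC KO-labelled cells against 4.74 and 4.67 FPKM in WT cells. Satb1, a chromatin organiser, was at 94.7 and 38.1 FPKM in MSC KO-labelled cells against 11.1 and 11.6 FPKM in WT cells. Nearest to Socs2 were Cux1, Snhg6 and Arl5c, at 0.0451, 0.11 and 0.155. The homeobox gene Cux1 was at 10.2 and 15.5 FPKM in MSC KO-labelled cells against 30.2 and 32.1 FPKM in WT cells.

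Most markers of other cells stood low. Myeloid markers summed to 4.59 and 4.69 FPKM in MSC KO-labelled cells and 2.34 and 1.97 FPKM in WT cells, with 7 of 8 under 1 FPKM in all 4 libraries. Most of the sum was Cd68, and Csf1r was at 0 and 0 FPKM in MSC KO-labelled cells against 0.0441 and 0.0129 FPKM in WT cells. B cell markers summed to 6.21 and 5.04 FPKM in MSC KO-labelled cells against 7.29 and 6.99 FPKM in WT cells, with 5 of 6 under 1 FPKM throughout. Mast cell markers summed to 3.19 and 15.5 FPKM in MSC KO-labelled cells against 10.8 and 10.3 FPKM in WT cells, nearly all of it Kit, with 4 of 6 at 0 in every library. CD8 markers summed to 9.13 and 19.8 FPKM in MSC KO-labelled cells against 11.3 and 11.7 FPKM in WT cells. Most of that sum was Cd8b1, at 8.56 and 19.1 FPKM in MSC KO-labelled cells against 9.75 and 9.75 FPKM in WT cells. Cd8a was at 0.571 and 0.658 FPKM in MSC KO-labelled cells against 1.58 and 1.90 FPKM in WT cells. Gamma delta and NK markers (3 of 5 found) summed to 0.0806 and 0.131 FPKM in MSC KO-labelled cells against 0.0214 and 0.0542 FPKM in WT cells, and erythroid markers (2 of 4 found) to 0.0324 and 0.0409 FPKM in MSC KO-labelled cells against 0.0538 and 0.0560 FPKM in WT cells. Stress genes, which also follow cell handling, summed to 1246 and 1058 FPKM in MSC KO-labelled cells against 926 and 930 FPKM in WT cells, and of 13 tested 7 stood above WT in both tables and 1 below. Of the 7, Fos and Hspa1b had a WT mean under 1 FPKM and entered through the MSC KO-labelled libraries. Atf3 read 31.5 and 20.6 FPKM in MSC KO-labelled cells against 6.83 and 6.79 FPKM in WT cells. The part of these genes in the SOCS differences was not tested.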

How the data were processed

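RNA from 4 libraries of induced Treg cells was sequenced by the authors. The build mm9 and the aligner TopHat are named in the submitters' processing notes. For the version, counting program and annotation, nothing is given in the sources used here. In all, the authors deposited 2 tables, each with 1 MSC KO and 1 WT library, read here as FPKM from the layout and values, with the authors' p-value and q-value per gene. Whether the tables were normalized together is not stated.

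Rows without a symbol, with 49.9% to 54.1% of the summed FPKM, were left out, and of several rows with 1 symbol the one with the highest mean was used. Of 22153 shared symbols 3 were dropped because their loci lay apart and 6 because an estimate had failed. Genes with a mean of at least 1 FPKM were compared as log2(FPKM + 1) by limma 3.58.1 in R 4.3.3, two-sided, with the table as a block, a trended prior variance (2.36 prior and 1 residual degrees of freedom) and Benjamini-Hochberg adjustment over all tested genes at 0.05. The fit was tested on simulated data. Python 3.11.15 and pandas 2.3.3 read and joined the files. Depth came from genes with a single annotated transcript over 2500 bp (GENCODE M21, matched by name), whose lowest values were taken as 1 fragment.

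Named genes were all 8 members, Msc, JAK and STAT genes, 7 fixed cytokines, up to 4 genes per list and direction that were 2-fold apart in both tables, and the 3 genes nearest to each member that was. Il6st, Cul5, Cblb, Usp18, Cd3e, Cd4, Cd68, Csf1r, Kit, Cd8a and Cd8b1 lie outside that rule and were named after their values were seen. The same holds for Il3, Il24, Lif, Osm and Csf2. It also holds for the genes named for how they passed the filter and the genes beside Socs1, Socs2 and Socs3. Members and lists (21 in all) were chosen with earlier results of these data known. Some genes and 1 list that the rule covers are not reported here.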

Additional observations from a re-analysis of the deposited data

How the results depend on the processing

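The directions of Socs1, Socs2, Socs3, Socs4, Socs7 and Cish were the same under every alternative run. Those of Socs5 (-0.0762 to 0.0432 without 1 library) and Socs6 (-0.00335 to 0.28) turned without WT 1 and without MSC KO 2. Leaving out 1 library, which also removes the block, gave 1.89 to 2.92 for Socs3, -1.50 to -1.02 for Socs2, 0.0512 to 0.44 for Socs1 and 0.0636 to 0.31 for Cish. The count of called genes over the whole table, 1, became 0 with no filter, with quantile normalization or with a prior without trend, 7 with libraries rescaled to the same sum, and 26 with small RNA symbols left out. The replicate numbers share a table, and the deviations of same-numbered libraries from their group means had a Pearson r of 0.0589 across genes. With no replicate block 153 genes were called (78 higher, 75 lower), none of them a SOCS gene (adjusted p = 0.0643 for Socs2 and 0.0671 for Socs3, limma). Beside these 153, fits without the block and without 1 library called 0 to 2672. With all 4 libraries the adjusted p ranged from 0.0638 to 0.211 for Socs2 and from 0.0638 to 0.22 for Socs3. The cause of these shifts was not tested. With 2 libraries per label and 1 residual degree of freedom, the intervals are wide.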

Other observations

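Genes near the 8 members were looked at with the members' values known, and those named were chosen after their own values were seen. Within 100000 bp of the 8 genes on mm9, 23 neighbours were tested. None was at least 2-fold apart in the same direction in both tables, and their median difference was -0.02. Tha1, threonine aldolase, lay 92560 bp from Socs3, and Pgs1, an enzyme of phospholipid synthesis, lay 17490 bp from it. Tha1 was at 8.33 and 3.04 FPKM in MSC KO-labelled cells against 1.42 and 1.10 FPKM in WT cells. Pgs1 was at 64.3 and 36.3 FPKM in MSC KO-labelled cells against 27.9 and 27.3 FPKM in WT cells. Both, like Socs3, were higher in MSC KO 1 than in MSC KO 2 (adjusted p = 0.17 for Tha1 and 0.22 for Pgs1, limma). Cradd, a death domain adaptor 87392 bp from Socs2, was at 6.08 and 6.78 FPKM in MSC KO-labelled cells against 12.6 and 11.9 FPKM in WT cells (adjusted p = 0.13, limma). The other tested neighbours of Socs2 differed little, Mrpl42 (63948 bp away) by -0.04 and Ube2n (98304 bp away) by -0.02. Prm2, a protamine of sperm chromatin 5844 bp from Socs1, was at 0.680 and 2.58 FPKM in MSC KO-labelled cells against 3.34 and 5.15 FPKM in WT cells (adjusted p = 0.154, limma).

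Transcribed intervals without a gene symbol lay between 22443 and 26287 bp from Socs2, on the side of its 3′ end (the strand is that of GENCODE M21). The first table listed 3, between 94847497 and 94851022 on chromosome 10 (mm9), which summed to 0.414 FPKM in MSC KO 1 and 8.66 FPKM in WT 1. The second table listed 6, between 94847428 and 94851680, which summed to 5.49 FPKM in MSC KO 2 and 51.2 FPKM in WT 2, of which 4.13 and 41.6 FPKM were in 1 interval of 159 bp. All were lower in the MSC KO-labelled library, 3 of 3 and 5 of 6 by at least 2-fold on the log2(FPKM + 1) scale. At a mean of at least 1 FPKM there were 3 intervals in each table, and all 3 were that much lower, where the share over all rows without a symbol at that mean was 21.8% for the first table and 14.2% for the second. Intervals were drawn separately in each table and are short, so their FPKM is uncertain. Those near Socs2 lie close together and were picked after their values were seen, so their count is a description. Near Socs1, an interval read 45.5 FPKM in MSC KO 1 against 131 FPKM in WT 1. Another read 0.0843 FPKM in MSC KO 2 against 0.971 FPKM in WT 2. Near Socs6 they read 76.8 FPKM in MSC KO 1 against 169 FPKM in WT 1, and 4.77 FPKM in MSC KO 2 against 3.05 FPKM in WT 2. Intervals near Cish went both ways.

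Usp18, which removes the ubiquitin-like modifier ISG15 and restrains the type I interferon receptor, read 22.2 and 2.17 FPKM in the MSC KO-labelled pair, against 3.37 and 3.27 FPKM for WT, so that the 2 tables differ in sign.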
